A study of Homo sapiens with 36 samples.

Results

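GDF15 (ENSG00000130513) encodes growth differentiation factor 15, a secreted and distant member of the TGF-beta superfamily. It is 1 of the 60675 genes in the count table, and it was chosen by its own values: its counts in the groups described here, each treatment set against the vehicle of its batch, differed strongly between treatments and between the cell lines. Its levels and fold changes are therefore given as a description, with no test. Tests are given for other genes, in lists drawn up around GDF15. Those lists were assembled with earlier results of the same data known.

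The libraries come from SW1783, a human astrocytoma line, and HT29, a human colorectal adenocarcinoma line, each a single established line. Cells of each line were kept for 24 h in 6 groups set by treatment and batch, giving 12 groups of 3 libraries and 36 libraries in all. Batch A held vehicle (0.1% DMSO) and wortmannin at 10 µM, an inhibitor of PI3K that served as the positive control. Batch B held vehicle (0.1% DMSO) and ACD, which stands for Aconitum carmichaeli Debeaux extracted in hot water (named Aconiti Lateralis Radix Preparata in the labels), at 20 µg/mL (low), 100 µg/mL (medium) and 500 µg/mL (high). The question put by the design is how far the extract changes transcription in a brain-derived and an intestine-derived line. The labels do not say that replicates were separate cultures, so p-values measure only the spread between these libraries, which may be technical. The 3 doses share 1 vehicle group per line, so their changes are not independent of one another. In bulk RNA, more RNA per cell and a different mixture of cells cannot be told apart.

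GDF15 is known as a cytokine of cell stress: most tissues make little of it at rest, and it is induced by damage to mitochondria, by protein misfolding in the endoplasmic reticulum (ER), by amino acid shortage and by DNA damage. The integrated stress response is one route to it. In that response 4 kinases phosphorylate the translation factor eIF2-alpha, which favours translation of the transcription factor ATF4, and ATF4 with its target CHOP (gene DDIT3) then switches on amino acid and stress genes. EGR1 and KLF4 are other factors described at its promoter. The secreted hormone acts through the receptor GFRAL with the co-receptor RET in the hindbrain, where it lowers food intake.

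The gene lies on the plus strand of chromosome 19 (GRCh38, GENCODE v44) at chr19:18374731-18389176, a span of 14446 bases with 2087 bases of merged exon. The promoter windows below are taken from RefSeq (GRCh38.p14), in the 250 bases before the annotated start. They are shown because ATF4 with a C/EBP partner is known to bind a composite element, and GDF15 can be set beside other ATF4 and CHOP target genes for it. Capitals mark the motif on either strand. For GDF15 they mark its 2 Sp1 boxes (GGGCGG or its reverse complement), and for the other genes the composite element TGATGNAA or its reverse complement.
GDF15, chr19:18386027-18386056, plus strand: cacccccagaccCCGCCCagctgtggtcat
GDF15, chr19:18386076-18386105, plus strand: gcagggggaggaGGGCGGgactgagcaggc
AARS1, chr16:70289675-70289704, minus strand: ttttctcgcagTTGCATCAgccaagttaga
ASNS, chr7:97872458-97872487, minus strand: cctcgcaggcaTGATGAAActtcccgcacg
ATF3, chr1:212565205-212565234, plus strand: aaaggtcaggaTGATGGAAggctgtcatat
CHAC1, chr15:40953251-40953280, plus strand: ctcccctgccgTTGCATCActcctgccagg
FGF21, chr19:48755459-48755488, plus strand: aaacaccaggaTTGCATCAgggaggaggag

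The Sp1 boxes of GDF15 begin 119 and 70 bases before the RefSeq start, and in 3 of the 5 GENCODE transcripts of GDF15 an exon covers part of this stretch, in 2 of them as untranslated sequence. The composite element was found in 5 of the 32 promoters of the ATF4 and CHOP target list that RefSeq supplied (15.6%) and in 3.19% of all 27305 promoters. The window of GDF15 held no match to it, which says only that these letters are not in this window. Sp1 boxes were common, in 21 of the 32 list promoters and 42.31% of all. No match in the GDF15 window was found for the cAMP response element TGACGTCA (1.77% of all promoters), the AP-1 element TGANTCA (6.6%) or the EGR1-type box GCGGGGGCG (4.68%). The last of these shares letters with the Sp1 box.

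In SW1783 vehicle cells GDF15 was a scarce transcript. Its level was 3.13, 4.17 and 4.25 CPM (the gene's counts as a share of its library's total, scaled to one fixed total for all libraries) in the 3 batch B vehicle libraries, from 62, 96 and 83 counts, and 3.40, 4.25 and 4.13 CPM in the 3 of batch A. At 20 µg/mL ACD the libraries held 6.89, 7.19 and 7.69 CPM. All of these lie above every SW1783 vehicle library, by a small step. At 100 µg/mL the level was 44.95, 46.6 and 50.7 CPM, and at 500 µg/mL it was 388.0, 409.2 and 407.3 CPM, from 7357, 9903 and 9566 counts. No dose group overlapped the one below it. Wortmannin gave 4.403, 3.28 and 4.43 CPM, a group that overlapped its vehicle.

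HT29 cells began higher and moved less. Their batch B vehicle libraries held 42.1, 40.3 and 38.0 CPM, and those of batch A 46.4, 40.6 and 33.5 CPM. The vehicle mean of HT29 was 10.4 times that of SW1783 in batch B and 10.2 times in batch A. Same-numbered vehicle libraries of the batches were more alike than other pairs, so these ratios may not be independent. ACD gave 49.3, 46.7 and 52.3 CPM at the low dose, 54.5, 52.9 and 56.6 CPM at the medium dose and 60.5, 55.6 and 59.2 CPM at the high dose. Each dose group lay above all batch B vehicle libraries, while the medium and high dose groups overlapped in CPM. Counts normalized by DESeq2 did not overlap there: 1305, 1247 and 1343 at the medium dose, and 1573, 1516 and 1496 at the high dose. With wortmannin the level was 31.5, 34.2 and 34.7 CPM, overlapping the lowest library of its own vehicle. At the high dose the order of the lines was the other way round, with SW1783 at 6.87 times the HT29 mean.

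**Figure D1:**
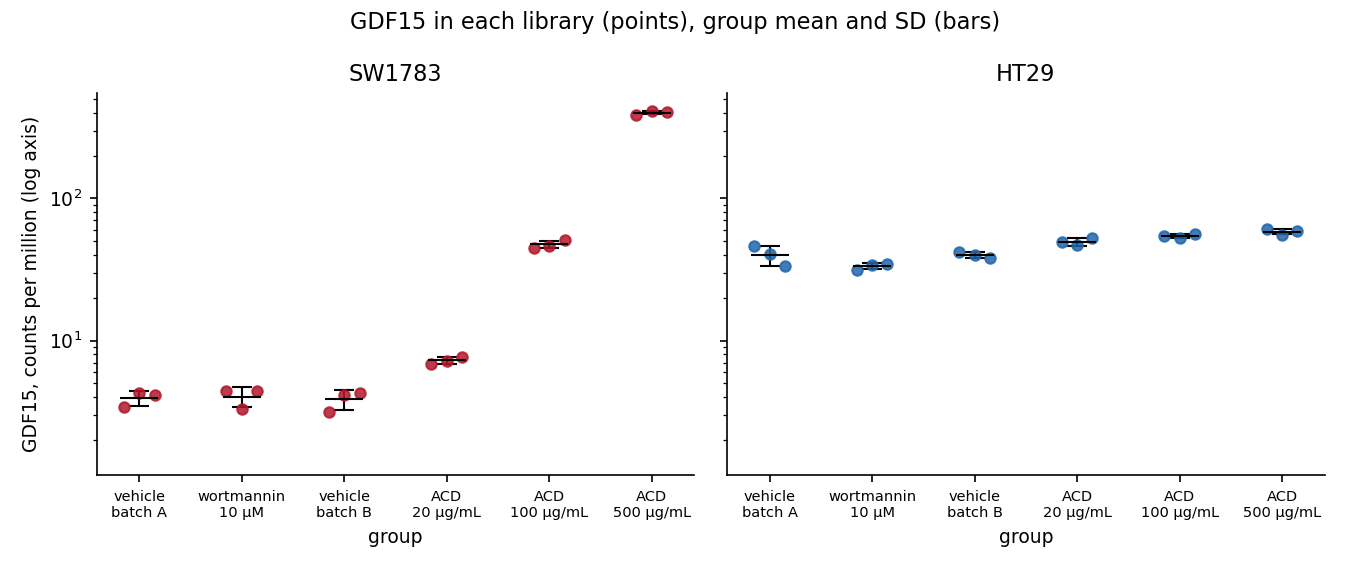
GDF15 in CPM (log axis) in each of the 36 libraries, by cell line and group; points are libraries, bars the mean ± SD of 3. SW1783 runs from 3.13 CPM in a vehicle library to 409.2 CPM at the high dose, and HT29 stays between 31.5 and 60.5 CPM.

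Ordered by mean, the 12 groups began with SW1783 vehicle of batch B at 3.85 ± 0.62 CPM (SD, n = 3), SW1783 vehicle of batch A at 3.93 ± 0.46 and SW1783 wortmannin at 4.04 ± 0.65, which overlapped. SW1783 low dose followed at 7.26 ± 0.40, apart from its neighbours. The middle of the order was held by HT29 wortmannin at 33.5 ± 1.7, HT29 vehicle B at 40.1 ± 2.1, HT29 vehicle A at 40.2 ± 6.4, SW1783 medium dose at 47.4 ± 3.0 and HT29 low dose at 49.4 ± 2.8 CPM. Each neighbour pair there overlapped, except HT29 wortmannin and the vehicle of batch B. The HT29 low and medium doses did not overlap. HT29 medium dose at 54.7 ± 1.9 and high dose at 58.4 ± 2.5 CPM overlapped each other on this scale, though not in normalized counts. SW1783 high dose at 401.5 ± 11.7 CPM stood alone. There, GDF15 made up 0.04015% of all counts.

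A level per kilobase of exon allows genes of different length to be ranked. Among 19586 protein-coding genes, GDF15 ranked between 9343 and 9964 in the SW1783 batch B vehicle libraries. It moved to between 7664 and 7977 at the low dose, 1501 and 1728 at the medium dose and 110 and 119 at the high dose. In HT29 it ranked between 2065 and 2284 with vehicle B and between 1226 and 1444 at the high dose. The gene thus went from the middle of this ranking in SW1783 to its uppermost part, while in HT29 it was among the upper ranks throughout. The ranking includes genes without counts, so its middle is not the middle of the expressed genes.

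As a log2 fold change over the vehicle of the same batch, with the standard error (SE) of the DESeq2 fit, GDF15 in SW1783 was at 0.94 ± 0.12 with the low dose, 3.73 ± 0.10 with the medium dose and 6.81 ± 0.10 with the high dose. These are 1.92-fold, 13.3-fold and 112.4-fold on that scale. The ratio of the CPM means, which scales by library totals and not by the size factors of the fit, was 104.2 at the high dose. From the low to the medium dose the log2 difference was 2.79 ± 0.08, and from the medium to the high dose 3.08 ± 0.05. Among the 11264 genes that averaged at least 100 normalized counts, its increase was in place 4, 2 and 1 at the rising doses. Its batch B vehicle libraries held 63.5, 84.1 and 86.4 normalized counts, so it met that average through the treated groups. The places restate the values by which the gene was chosen and carry no test. With wortmannin the value was 0.02 ± 0.21.

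In HT29 the log2 fold changes were 0.29 ± 0.07, 0.46 ± 0.07 and 0.69 ± 0.07 at the low, medium and high dose, the last being 1.61-fold. By the ratio of CPM means the high dose was 1.46-fold, below the 1.5-fold that the call rule asks for. The steps between doses were 0.17 ± 0.07 and 0.24 ± 0.07, and its increase was in place 221, 110 and 107 of 10927 genes. Wortmannin gave -0.32 ± 0.12. SW1783 exceeded HT29 in log2 fold change by 0.66 ± 0.14 (combined SE) at the low dose, 3.28 ± 0.13 at the medium dose and 6.12 ± 0.13 at the high dose, and by 0.34 ± 0.24 with wortmannin. These differences belong to the values by which the gene was chosen and carry no test.

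**Figure D2:**
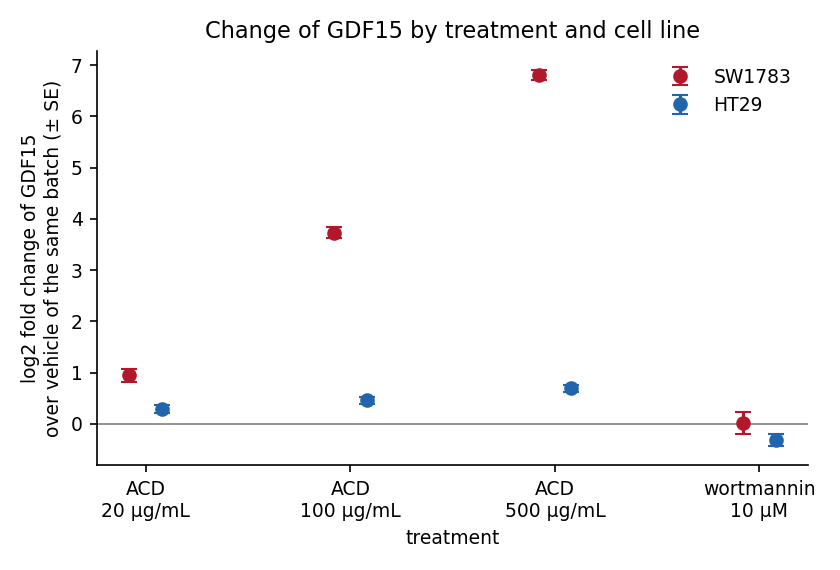
Log2 fold change of GDF15 over the vehicle of the same batch for each treatment (points, with SE bars) in SW1783 and HT29. The SW1783 points climb from 0.94 to 6.81 with dose, the HT29 points from 0.29 to 0.69, and the wortmannin points are 0.02 and -0.32.

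Facts of the whole table that bear on these levels are few. Depth was 18863863 to 26436867 counts in SW1783 and 15941255 to 33866644 in HT29. The shallowest library was replicate 2 of the HT29 high dose, and list counts at that dose that change without it are given both ways. Mitochondrial ribosomal RNA took more of the counts in most ACD groups. Its mean share was 0.93% in SW1783 vehicle B, then 3.14%, 7.83% and 5.93% in order of dose, and in HT29 1.18%, then 1.09%, 2.10% and 11.96%. Leaving these RNAs out moved no GDF15 fold change by more than 0.012 on the log2 scale. Of the astrocyte markers, GFAP did not exceed 0.26 CPM in any SW1783 library, and S100B and AQP4 were also at or near 0. SLC1A3, by contrast, had a median of 32.1 CPM in SW1783 and 0 in HT29, and ALDH1L1 had 0 and 7.23 CPM. VIM (median 4534 CPM), FN1, CD44 and COL1A2 were abundant in SW1783, and CD44 had a median of 527 CPM in HT29. The blood marker PTPRC had a median of 11.7 CPM in SW1783. HT29 held EPCAM (median 534 CPM) and KRT20. In SW1783 the summed epithelial markers went from 241 to 250 CPM in vehicle B down to 81.8 to 86.1 CPM at the high dose. That sum was mostly KRT18 (median 206 CPM in SW1783) and KRT8 (18.8 CPM). EPCAM, KRT20, CDH1, CDX2, VIL1 and LGALS4 had medians of at most 0.043 CPM there. The summed astrocyte and mesenchymal markers went from 14662 to 14945 CPM down to 12370 to 12521 CPM. The part of these markers in the GDF15 level was not tested.

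The receptor side of the system was not detectable or barely so in both lines. GFRAL had 0 counts in every library, where a count of 0 allows up to 3 counts (counting error only), and RET, its signalling partner, was at or near 0. FURIN, PCSK5, PCSK6 and PCSK7 encode proprotein convertases, the family that cleaves the GDF15 precursor, and MMP14 encodes a membrane protease known to cut GFRAL. Of the 5 of these 7 genes that could be tested at the high dose in SW1783, 1 was called up (adjusted p below 0.05 and a fold over 1.5, DESeq2), against 8.66% of all genes tested. This was MMP14, with a log2 fold change of 0.60 ± 0.03 (adjusted p = 1.71e-104), from 715.8 ± 10.5 to 1001 ± 21 CPM. FURIN was at -0.29 ± 0.04 and PCSK7 at -0.51 ± 0.05, both short of the fold threshold. In HT29 the high dose gave 0 calls of 5 by DESeq2 and by edgeR, with 1 higher and 1 lower at an unadjusted p under 0.05. Between the lines at the high dose PCSK5 differed by -0.70 ± 0.32 (interaction, DESeq2 adjusted p = 0.0897), and by -0.77 ± 0.32 (adjusted p = 0.0493) without replicate 2 of the HT29 group.

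Among 17 transcription factors described at the GDF15 promoter, ATF4, DDIT3 and ATF3 changed in both lines. In SW1783 at the high dose 8 of 17 were called up and 1 down, against 8.66% and 9.57% of all 19453 genes tested, and the median log2 fold change was 0.48 (all genes tested -0.01). In HT29 at the high dose 4 of 17 were called up, against 1.29% of all 16450 genes, with a median of 0.38 (all genes 0.01), and edgeR called 3. At the medium dose SW1783 had 6 called up, against 2.34% of all genes.

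ATF4, the central factor of the response, stood at 103.2, 100.3 and 101.4 CPM in SW1783 vehicle B and at 392.9, 370.1 and 384.5 CPM at the high dose, a log2 fold change of 2.03 ± 0.04. The low dose libraries, from 121.5 to 128.4 CPM, and the medium dose libraries, from 246.0 to 264.1 CPM, lay between without overlap. In HT29 it was at 269.8, 252.5 and 244.4 CPM with vehicle B and 333.7, 373.4 and 334.7 CPM at the high dose, a log2 fold change of 0.59 ± 0.08 (adjusted p = 1.45e-10). ATF4 is thus more abundant in HT29 than in SW1783 at rest by CPM, as GDF15 is. The lines differed in the change of ATF4 by 1.39 ± 0.08 on the log2 scale (interaction term, adjusted p = 3.09e-59).

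DDIT3, which encodes CHOP, was at 24.9, 23.8 and 27.5 CPM in SW1783 vehicle B and at 355.9, 373.6 and 325.1 CPM at the high dose, a log2 fold change of 3.91 ± 0.06. In HT29 its levels were 6.94, 5.79 and 5.78 CPM with vehicle B and 9.46, 10.3 and 8.65 CPM at the high dose, a log2 fold change of 0.76 ± 0.15 (adjusted p = 2.25e-05). Unlike GDF15, DDIT3 was lower in HT29 than in SW1783 vehicle cells by CPM. The interaction was 3.11 ± 0.14 (adjusted p = 2.65e-100).

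ATF3, a further factor of the ATF4 branch, had the largest fold of the 17 at the high dose in both lines. It was at 1.77, 1.95 and 1.95 CPM in SW1783 vehicle B and at 44.4, 48.8 and 45.8 CPM at the high dose, a log2 fold change of 4.73 ± 0.16 (adjusted p = 8.44e-179). In HT29 it went from 1.81, 2.58 and 2.90 CPM to 5.79, 6.34 and 6.11 CPM, a log2 fold change of 1.45 ± 0.18 (adjusted p = 7.68e-13). The vehicle and high dose groups did not overlap in either line.

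The others called up at the high dose in SW1783 were KLF4 at 2.76 ± 0.12, CEBPG at 1.79 ± 0.04, CEBPB at 1.46 ± 0.16, XBP1 at 1.27 ± 0.04 and PPARG at 1.12 ± 0.07. FOS, an AP-1 subunit, was called down at -1.18 ± 0.37 (adjusted p = 0.00366) from a low level of 1.81 ± 0.15 CPM. Not called were EGR1 (0.10 ± 0.12), JUN (0.42 ± 0.05), SP1 (0.37 ± 0.05), SP3 (-0.00 ± 0.05), NFE2L2 (0.48 ± 0.05), HIF1A (0.33 ± 0.03), TFEB (-0.41 ± 0.11) and TFE3 (0.27 ± 0.04). The fourth factor called up in HT29 was EGR1 at 0.60 ± 0.20 (adjusted p = 0.039). KLF4 in HT29 was at 0.42 ± 0.13 and was not called.

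In the interaction test at the high dose, 8 of the 17 factors had a more positive change in SW1783 and 2, FOS and TFEB, a more negative one, against 6.86% and 7.77% of all 18379 genes tested. Without replicate 2 of the HT29 high dose these counts were 8 and 3, with EGR1 the third. With wortmannin the called factors were EGR1 (0.68 ± 0.09, adjusted p = 3.8e-13) and FOS (0.70 ± 0.28, adjusted p = 0.0352) in SW1783, against 1.74% of genes called up. ATF4 was at -0.02 ± 0.04 in SW1783 and -0.39 ± 0.07 in HT29 with wortmannin, and DDIT3 at -0.56 ± 0.09 in SW1783, each short of the fold threshold.

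The next list holds the kinases and relays upstream of ATF4. Of 15 members, which include the 4 eIF2-alpha kinases and the subunits of the exchange factor eIF2B, 2 were called up in SW1783 at the high dose, against 8.66% of all genes. One was PPP1R15A at 2.94 ± 0.05, which encodes GADD34, the phosphatase subunit that reverses eIF2-alpha phosphorylation and is itself an ATF4 and CHOP target. It went from 45.2 ± 3.0 to 319.8 ± 5.3 CPM. The other was OMA1 at 0.74 ± 0.09 (adjusted p = 1.67e-14), a mitochondrial protease that relays mitochondrial damage to this response. For HT29 at this dose DESeq2 and edgeR each called 0 of 15, with 3 higher at an unadjusted p under 0.05, and PPP1R15A was at 0.42 ± 0.12. The interaction test called PPP1R15A (2.46 ± 0.12, adjusted p = 2.2e-85), 1 of 15, against 6.86% of all genes more positive in SW1783. Without replicate 2 of the HT29 high dose it called OMA1 too, at 0.63 ± 0.14 (adjusted p = 5.02e-05). Wortmannin in HT29 was accompanied by a rise of EIF2AK2, the kinase PKR, at 0.87 ± 0.07 (adjusted p = 1.02e-36), against 1.92% of genes called up there.

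Target genes of ATF4 and CHOP formed the longest list, and the one with the most members called up at the high dose in both lines. Of 41 members, 35 of 40 tested were called up in SW1783 at the high dose (8.66% of all genes), with a median log2 fold change of 1.64, and 31 of 40 at the medium dose (2.34% of all genes), with a median of 1.04. At the low dose 3 of 38 were called up, against 0.0967% of all 9304 genes tested: ADM2 at 0.91 ± 0.18, CHAC1 at 0.69 ± 0.14 and NUPR1 at 0.66 ± 0.11. This low dose count was 0 without vehicle replicate 3 or low dose replicate 2, and 1 without low dose replicate 1 or 3. In HT29, 25 of 38 were called up at the high dose (1.29% of all genes) and 1, KLHL24, down, with a median of 0.80, and these counts were 25 and 1 also without replicate 2. At the medium dose 1 of 38 was called up, against 0.426% of all genes, and this was SLC7A11 at 0.62 ± 0.11, a call lost without medium dose replicate 2. At the low dose DESeq2 and edgeR each called 0 of 38 in HT29, with 3 higher at an unadjusted p under 0.05.

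Members called up in both lines at the high dose numbered 23, which is 65.7% of the SW1783 calls and 92.0% of the HT29 calls. Of all genes tested, 8.66% were called up in SW1783 and 1.29% in HT29, and the overlap of those calls was not computed. By the interaction test 21 of 40 changed more positively in SW1783 than in HT29, and 2, SLC6A9 and VLDLR, more negatively. These counts stand against 6.86% and 7.77% of all genes.

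TRIB3 encodes a pseudokinase that ATF4 and CHOP induce. In SW1783 it stood at 21.6, 17.1 and 19.6 CPM with vehicle B, at 123.3, 129.7 and 130.2 CPM at the medium dose and at 353.7, 356.4 and 350.3 CPM at the high dose, a log2 fold change of 4.31 ± 0.06. In HT29 it went from 44.1, 44.1 and 42.6 CPM to 86.9, 77.1 and 86.1 CPM, a log2 fold change of 1.08 ± 0.07 (adjusted p = 1.36e-45). As with GDF15, the level at rest was higher in HT29 by CPM and the change larger in SW1783, with an interaction of 3.18 ± 0.09 (adjusted p = 6.25e-263).

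ASNS encodes asparagine synthetase. It was at 50.9, 50.9 and 49.5 CPM in SW1783 vehicle B and 332.0, 345.2 and 345.5 CPM at the high dose, a log2 fold change of 2.87 ± 0.04. In HT29 it was at 55.3, 58.2 and 58.2 CPM with vehicle B and 190.4, 265.6 and 197.2 CPM at the high dose, a log2 fold change of 2.08 ± 0.14 (adjusted p = 4.54e-50). The highest HT29 value was that of replicate 2. The interaction was 0.75 ± 0.14 (adjusted p = 7.7e-07). With wortmannin ASNS fell by 0.76 on the log2 scale in HT29 (SE 0.08, adjusted p = 2.05e-20), as did PHGDH, the first enzyme of serine synthesis, by 0.70 (SE 0.11). They were the 2 of 35 list members called down there, against 0.731% of all genes, and 1 was called up, against 1.92%. In SW1783 wortmannin gave 1 of 39 called up and 0 down, against 1.74% and 0.983% of all genes, and edgeR called 1 up and 1 down.

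CHAC1 encodes a glutathione-degrading enzyme. Its levels at the high dose were 29.0, 27.8 and 30.9 CPM in SW1783, from 4.35, 3.74 and 4.36 CPM, and its log2 fold change was 2.94 ± 0.13. In HT29 they were 20.4, 15.5 and 19.8 CPM, from 3.12, 2.36 and 2.45 CPM, and the log2 fold change was 2.99 ± 0.17 (adjusted p = 9.45e-67). The interaction was -0.10 ± 0.20 (adjusted p = 0.784), which does not show that the changes were equal. In SW1783 the medium dose libraries, from 26.3 to 29.3 CPM, already overlapped those of the high dose. The other members with the largest changes were ADM2, a calcitonin-family peptide, at 4.21 ± 0.16 in SW1783 and 2.53 ± 0.29 in HT29, and SLC6A9, a glycine transporter, at 2.84 ± 0.39 in HT29.

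**Figure D3:**
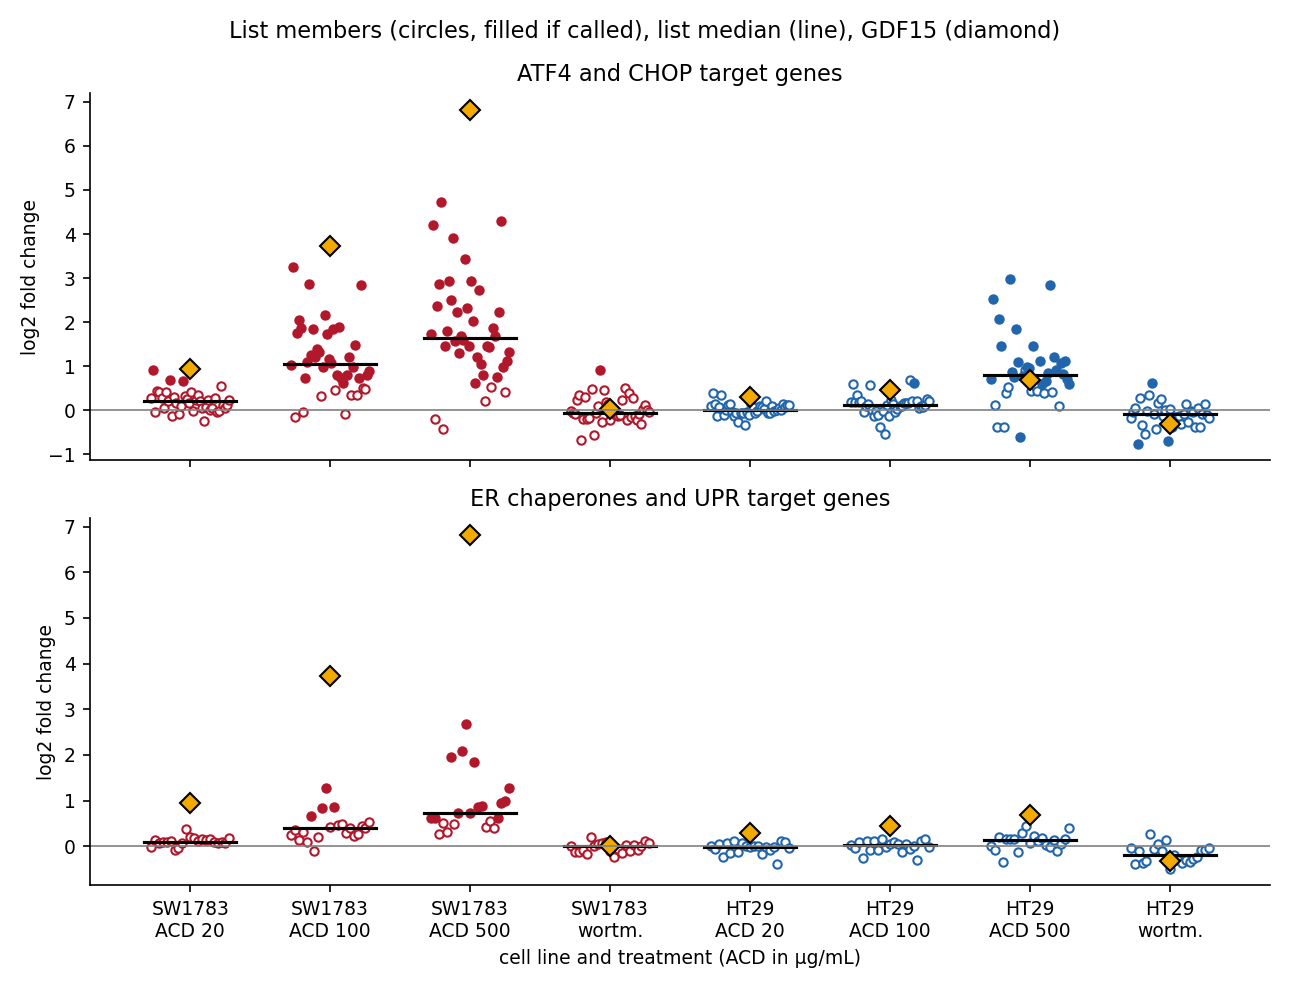
Log2 fold changes over vehicle of the ATF4 and CHOP target genes and of the ER chaperones and unfolded protein response (UPR) target genes, by cell line and treatment; circles are members (filled when called), lines the list median, diamonds GDF15. At 500 µg/mL GDF15 lies above every member in SW1783 and near the median of the ATF4 and CHOP list (0.80) in HT29.

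Of 21 ER chaperones and UPR target genes, 14 were called up in SW1783 at the high dose (8.66% of all genes), with a median log2 fold change of 0.72, and 4 at the medium dose (2.34% of all genes). HERPUD1, a part of the machinery that removes misfolded ER proteins, was at 2.68 ± 0.04, ERN1, the UPR sensor IRE1, at 2.09 ± 0.07 and DNAJB9 at 1.95 ± 0.06 (adjusted p = 1.23e-248). HSPA5, the main ER chaperone BiP, was abundant, at 3687, 3637 and 3685 CPM with vehicle B, and reached 12289, 12479 and 11717 CPM at the high dose, a log2 fold change of 1.84 ± 0.02.

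HT29 had 0 of the 21 called at the high dose by DESeq2 and by edgeR, with 6 higher and 1 lower at an unadjusted p under 0.05 and a median of 0.14. HSPA5 there was at 365.7, 383.3 and 386.1 CPM with vehicle B and 386.6, 438.2 and 380.3 CPM at the high dose, groups that overlap. The interaction test called 14 of 21 as more positive in SW1783, against 6.86% of all genes, among them HERPUD1 at 2.20 ± 0.07 (adjusted p = 2.98e-229). Without replicate 2 of the HT29 high dose 14 were also called.

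Mitochondrial chaperones and proteases are listed because GDF15 is used as a marker of mitochondrial disease. Of 14 tested in SW1783 at the high dose 3 were called up, against 8.66% of all genes: the protease LONP1 at 1.15 ± 0.04 (adjusted p = 4.33e-145), the chaperone HSPA9 at 1.12 ± 0.02 and OMA1, given above. At the same dose in HT29, DESeq2 and edgeR each called 0 of 14, with 6 higher at an unadjusted p under 0.05. With wortmannin HSPE1, the co-chaperonin, was called down in HT29 at -0.68 ± 0.06 (adjusted p = 6.06e-27), against 0.731% of genes called down. The mitochondrial ribosomal RNAs MT-RNR1 and MT-RNR2 were called up at the high dose in both lines, MT-RNR1 by 4.30 ± 0.05 in SW1783 and 4.57 ± 0.09 in HT29. MT-RNR2 had the more negative interaction, -0.76 ± 0.10 (adjusted p = 6.31e-13), while MT-RNR1 was at -0.31 ± 0.10 and was not called. At the low and medium doses the shares given above were higher in SW1783 than in HT29.

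NRF2 target genes handle oxidants and electrophiles. In SW1783 at the high dose 9 of 15 were called up (8.66% of all genes), with a median log2 fold change of 0.63, led by HMOX1, heme oxygenase 1, at 3.39 ± 0.05 (58.1 ± 0.9 to 563.4 ± 27.2 CPM), FTH1, the ferritin heavy chain, at 2.05 ± 0.09 and GCLC, an enzyme of glutathione synthesis, at 1.98 ± 0.06. Of the 15, 7 were called up in HT29 at the high dose (1.29% of all genes), with a median of 0.58, led by the cystine transporter gene SLC7A11 at 1.21 ± 0.11 (adjusted p = 6.44e-27), HMOX1 at 1.09 ± 0.13 (adjusted p = 1.58e-15) and NQO1 at 0.89 ± 0.15 (adjusted p = 5.03e-07). Without replicate 2 of that group 8 were called up. At the medium dose 6 of 15 were called up in SW1783 (2.34% of all genes) and 3 of 15 in HT29 (0.426% of all genes). Calls shared by both lines at the high dose were 5, which is 55.6% of those in SW1783 and 71.4% of those in HT29. The overlap of the calls over all genes was not computed. In the interaction test 6 of 15 were called as more positive in SW1783 and 1, ME1, as more negative, against 6.86% and 7.77% of all genes. Without replicate 2 of the HT29 high dose the counts were 5 and 0. With wortmannin HMOX1 was called down in SW1783 at -0.99 ± 0.06 (adjusted p = 1.36e-52), against 0.983% of genes called down.

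**Figure D4:**
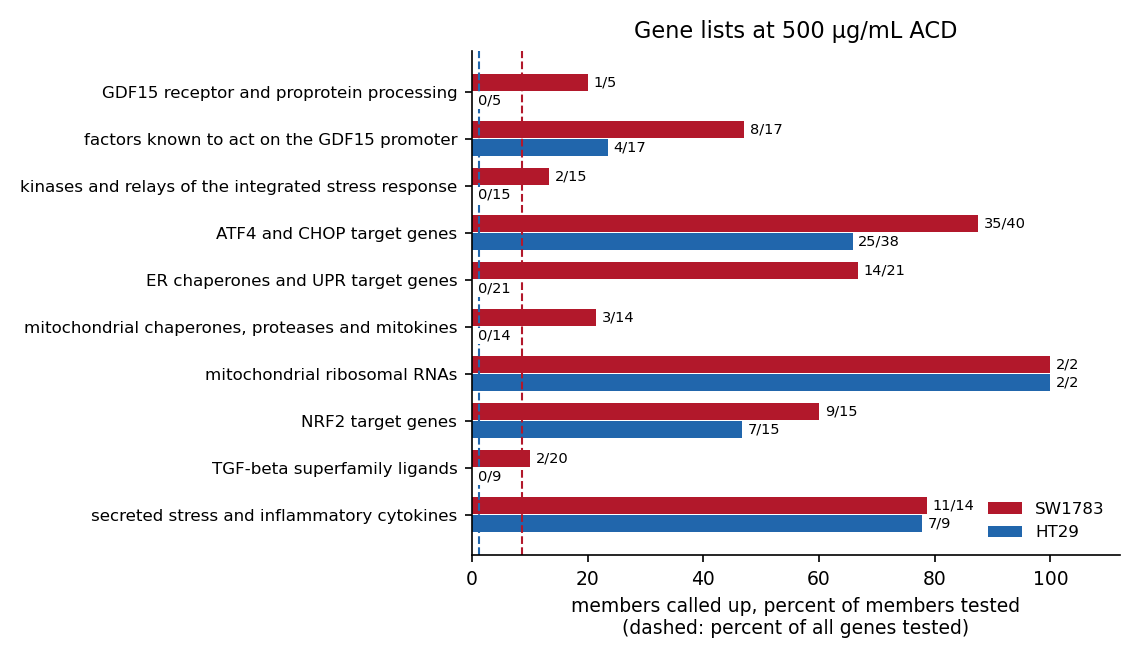
Members called up at 500 µg/mL ACD as a percent of members tested, for each list and cell line, with the counts beside the bars; dashed lines are the percent of all genes called up (8.66% in SW1783, 1.29% in HT29). In HT29 the most called members are in the ATF4 and CHOP (25 of 38), NRF2 (7 of 15) and cytokine (7 of 9) lists, and the ER list has 0 of 21 (edgeR 0, 6 higher at an unadjusted p under 0.05).

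Of the other ligands of the TGF-beta superfamily more were called down than up. By the level per kilobase of exon GDF15 was in place 8 of 33 ligands in SW1783 vehicle cells, where TGFB1 led at 505.5, and in place 1 at the high dose, at 703.6 against 336.4 for TGFB1. In HT29 it was in place 2 in every group, after BMP4 at 282.6 to 331.1. At the high dose in SW1783, 2 of 20 other ligands tested were called up, INHBE at 2.22 ± 0.36 and BMP6 at 2.10 ± 0.38, and 6 down, led by TGFB3 at -2.97 ± 0.15 (adjusted p = 7.68e-88), GDF5 at -2.49 ± 0.48 and BMP4 at -2.37 ± 0.18. The shares, 2 and 6 of 20, stand against 8.66% and 9.57% of all genes, and edgeR called 4 up. INHBE is also in the ATF4 and CHOP list. In HT29, 1 of 9 was called down, TGFB3 at -1.49 ± 0.48 (adjusted p = 0.0303), against 1.63% of genes. With wortmannin BMP6 was called up in SW1783 at 1.27 ± 0.36 (adjusted p = 0.00192).

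Other secreted stress and inflammatory cytokines were called in both lines. At the high dose 11 of 14 were called up in SW1783 and 2, IL11 and CCL2, down (8.66% and 9.57% of all genes), with a median log2 fold change of 1.87. In HT29 7 of 9 were called up (1.29% of all genes), with a median of 0.90. CXCL8, the neutrophil chemokine interleukin 8, was at 4.50, 5.17 and 5.28 CPM in SW1783 vehicle B, at 8.11, 9.96 and 8.15 CPM with 100 µg/mL ACD and at 100.2, 104.7 and 92.1 CPM with 500 µg/mL. In HT29 it was at 4.93, 4.34 and 3.85 CPM with vehicle B and at 10.8, 10.8 and 12.2 CPM already with 20 µg/mL, then at 17.2, 19.9 and 18.2 CPM and at 22.2, 49.2 and 28.8 CPM with the higher doses. CXCL8 thus reacted to the low dose in HT29, with a log2 fold change of 1.35 ± 0.26 (adjusted p = 0.000221), whereas in SW1783 the low dose libraries overlapped vehicle.

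CXCL1, a related chemokine, was at 1.97, 1.51 and 1.54 CPM in HT29 vehicle B, at 6.46, 7.05 and 7.09 CPM at the low dose and at 20.7, 30.6 and 22.8 CPM at the high dose, log2 fold changes of 2.04 ± 0.22 (adjusted p = 3.63e-17) and 4.05 ± 0.21 (adjusted p = 7.36e-78). At the low dose in HT29, CXCL1 and CXCL8 were the 2 of 9 called up, against 0.145% of all genes, and edgeR called 1. In SW1783 the largest changes of the list at the high dose were CXCL2 at 5.21 ± 0.37, CSF2, the growth factor GM-CSF, at 4.93 ± 0.68 and CXCL8 at 4.42 ± 0.11, the first and second from below 0.4 CPM. IL6 rose to between 38.5 and 43.3 CPM in SW1783 from between 3.43 and 4.26 CPM, and it was at 0 in all but 1 HT29 library. CCL2, a monocyte chemokine, was the 1 of 8 called down at the low dose in SW1783, at -0.61 ± 0.12 (adjusted p = 2.71e-05), against 0.0215% of all genes. At the medium dose 5 of 13 were called up and CCL2 was called down, against 2.34% and 1.48%. The interaction test called 5 of 15 cytokines as more positive in SW1783 and 0 as more negative, against 6.86% and 7.77% of all genes.

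Within 100 kb of GDF15 lie 14 annotated genes, 7 of them protein-coding, and 1, the microRNA gene MIR3189, overlaps GDF15 and had 0 counts. At the high dose in SW1783, 2 of the 6 that could be tested were called up, against 8.66% of all genes. JUND, an AP-1 subunit 93109 bases away, was at 24.1, 28.1 and 29.3 CPM with vehicle B and 66.5, 60.5 and 68.1 CPM at the high dose, a log2 fold change of 1.37 ± 0.09 (adjusted p = 1.37e-55). PGPEP1, which encodes a peptidase and lies 4781 bases away on the same strand, was at 18.9, 18.7 and 18.7 CPM and 32.7, 30.6 and 28.5 CPM, a log2 fold change of 0.82 ± 0.10 (adjusted p = 6.13e-17). In HT29 their high dose values were -0.07 ± 0.13 and -0.57 ± 0.11, both not called.

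The genes whose pattern was most like that of GDF15 were found from log2(CPM + 1) over all 36 libraries, centred within each line. Compared were 12851 genes with a mean of at least 5 CPM in 1 or more of the 12 groups. Some met this only in ACD groups, such as RAB39B, at 2.40 CPM in SW1783 vehicle B and 28.9 CPM at the high dose. They were ranked against the values by which GDF15 was chosen, so the ranking is a description. The highest Pearson correlations across these libraries belonged to HKDC1 (0.99), RAB39B (0.99), GTPBP2 (0.99), KLF4 (0.99), RND3 (0.98), HSPA5 (0.98), GREM1 (0.98), THBD (0.98), HERPUD1 (0.98) and SQSTM1 (0.98). The libraries share batches, vehicles and line, and the wide range of SW1783 sets the value, so no p is given. Within HT29 alone the same genes had correlations from 0.10 to 0.67, and THBD had none for lack of counts. HKDC1, a hexokinase family gene, was at 1.82, 2.65 and 1.85 CPM in SW1783 vehicle B and at 48.4, 54.6 and 53.5 CPM at the high dose, and in HT29 at 24.8, 29.0 and 27.1 CPM and 31.8, 31.3 and 33.2 CPM. Like GDF15, it was higher at rest in HT29 by CPM and highest in SW1783 at the high dose.

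A smallest root mean square difference from GDF15, which asks for like size as well as like shape, was found for TRIB3 (0.59), HKDC1 (0.64), ATF3 (0.71), DDIT3 (0.71) and NGFR (0.76). Of the 39 ATF4 and CHOP target genes in this comparison 13 were among the 100 most correlated of all 12851 genes and 26 among the 500. The ranking depends on the measure: by Spearman correlation, 2 of the 10 most correlated genes stayed among the first 100. The lowest correlations belonged to VAV3 (-0.99), SEMA5A (-0.99), EPHA3 (-0.98), STAC2 (-0.98) and PLPPR4 (-0.98). In the 18 SW1783 libraries alone the leading genes were RAB39B, GARS1, AARS1, ARHGEF2 and HKDC1, each above 0.99, of which GARS1 and AARS1 encode aminoacyl-tRNA synthetases.

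In the 18 HT29 libraries the leading genes were others: IER3 (0.93), CXCL1 (0.91), CDKN1A (0.91), PI3 (0.90) and SRXN1 (0.90). CDKN1A, which encodes the cell cycle inhibitor p21, was at 16.0, 14.9 and 15.3 CPM in HT29 vehicle B and 22.6, 19.1 and 20.7 CPM at the high dose. IER3, an immediate early response gene, was at 77.8, 62.0 and 58.7 CPM in HT29 vehicle B and 96.1, 97.5 and 98.8 CPM at the high dose. Of the 100 genes most correlated with GDF15 in each line, out of at most 12851 compared, 13 were shared.

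**Figure D5:**
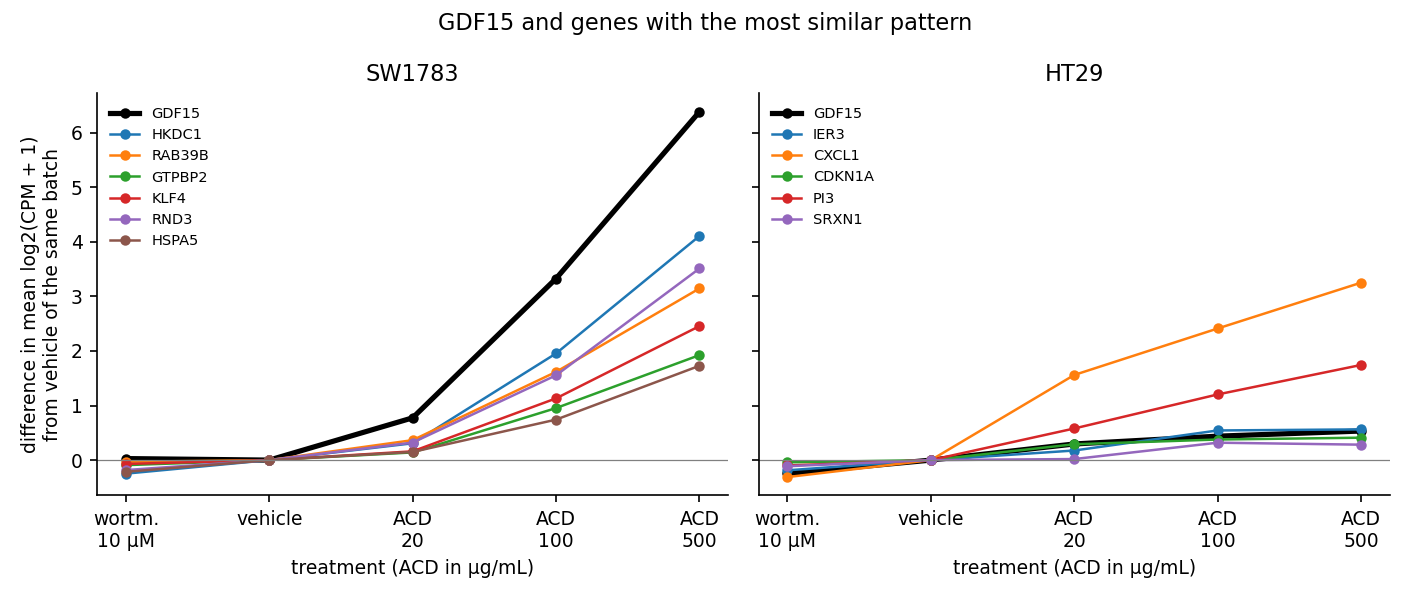
Difference in mean log2(CPM + 1) from the vehicle of the same batch, for GDF15 (thick line) and the genes most correlated with it, in SW1783 over all 36 libraries and in HT29 over its 18 libraries. In SW1783 the 6 genes shown follow the dose at a smaller size than GDF15, while in HT29 CXCL1 and PI3 exceed it and IER3, CDKN1A and SRXN1 lie near it.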

How the data were processed

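Messenger RNA was sequenced as directional paired-end libraries from 36 samples. The authors deposited expected counts per gene from RSEM, of which 8.84% are not exactly whole; per the labels the tools were FastQC 0.11.9, Trim Galore 0.6.5, STAR 2.7.3a and RSEM 1.3.3, while the methods give partly other versions, annotation release 84 and the genome as GRCh38 (hg19), which names 2 builds. The strand setting of the counting is not given in the sources used here. Reads that RSEM divides between similar genes can shift their counts.

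For the tests the counts were rounded. Fold changes, SE and adjusted p-values (Benjamini-Hochberg over all genes tested) were computed with DESeq2 1.42.0 (Wald test; R 4.3.3). For each line, 1 fit held the 12 libraries of batch B and another the 6 of batch A, and the interaction at the high dose was fitted on 24 libraries. A call asked for an adjusted p under 0.05 and a fold over 1.5. CPM used the library total, and levels per kilobase used GENCODE v44 exons. Groups came from sample titles. Checks on simulated counts preceded the tests.

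GDF15, the lists and the tests were chosen with earlier results of these data known. Named were GDF15, the 10 highest and 5 lowest correlated genes, the 5 nearest in size and the 5 leading in each line, per list the 3 called members with the largest changes at the high dose or with wortmannin, all promoter factors and receptor genes, and the neighbours. ATF4, TRIB3, ASNS, CHAC1, CXCL8, CXCL1, HSPA5, IL6 and CDKN1A are given by library, some of them chosen after their values were seen. Alternatives were edgeR 4.0.16, other scalings, filters, thresholds and fits, and leaving out single libraries. Precision per library follows from its depth, and counting error is the only error a single library shows. Proteins of these genes are not analysed here, and 1 factor with its target genes and 1 member of the NRF2 list are not reported here.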

Additional observations from a re-analysis of the deposited data

Results flagged for a closer look

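Each list was compared between the lines at the high dose by the interaction term of DESeq2, and the members called there are flagged because their change differed between SW1783 and HT29. A more positive change in SW1783 was found for 21 ATF4 and CHOP target genes, 14 ER chaperones and UPR target genes, 8 promoter factors, 6 NRF2 target genes, 5 cytokines, 2 mitochondrial chaperones or proteases, 1 TGF-beta superfamily ligand and 1 member of the kinase list (PPP1R15A). A more negative change in SW1783 was found for 4 TGF-beta superfamily ligands, 2 promoter factors, 2 ATF4 and CHOP target genes, 1 NRF2 target gene, 1 mitochondrial co-chaperonin (HSPE1) and 1 mitochondrial ribosomal RNA (MT-RNR2). Without replicate 2 of the HT29 high dose the mitochondrial list had 3 more positive and 0 more negative, as HSPE1 was not called then, the promoter factors had 8 and 3, and the NRF2 targets 5 and 0. Over all genes 6.86% were more positive and 7.77% more negative. Some genes stand in more than 1 list. Line, culture medium and plating density differ together, so their parts cannot be told apart. No separate outlier test was used for flagging, as each group held 3 libraries.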

How the results depend on the processing

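The log2 fold change of GDF15 stayed within the larger replicate SD of the groups compared in 102 of 102 alternatives. Of these, 48 left out 1 of 3 libraries, which can hardly move a mean by that SD. The other 54 refitted the same counts and moved it by at most 0.012. The count is therefore no measure of robustness. With 1 library left out it ranged in SW1783 from 0.82 to 1.01 (low), 3.61 to 3.8 (medium), 6.69 to 6.88 (high) and -0.07 to 0.14 (wortmannin), and in HT29 from 0.25 to 0.34, 0.41 to 0.50, 0.65 to 0.74 and -0.44 to -0.19. The ATF4 and CHOP genes called up at the low dose in SW1783 were 0 when only the compared groups were fitted and 19 with no fold threshold. With no fold threshold they were 9 for SW1783 wortmannin and 4 for the medium dose in HT29. With 1 library left out they ranged over 0 to 4 (SW1783 low), 30 to 31, 34 to 35 and 1 to 1 in SW1783, and 0 to 0, 0 to 1, 24 to 26 and 0 to 1 in HT29. The low dose count in SW1783 was 0 without vehicle replicate 3 or low dose replicate 2 and 1 without low dose replicate 1 or 3; in HT29 the medium count was 0 without medium replicate 2, and the wortmannin count was 0 without vehicle replicate 2 or 3 or any wortmannin replicate.

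Genes called in all were 11, 537, 3546 and 379 in SW1783 (low, medium, high, wortmannin) and 50, 136, 480 and 362 in HT29. With no fold threshold they were 306, 4157, 9040 and 4730, and 98, 344, 1253 and 2559. edgeR called 30, 809 and 687 in SW1783 (low, medium, wortmannin) and 18 at the HT29 low dose. Fitting only the compared groups gave 6 at the SW1783 low dose and 299 at the HT29 high dose, and fitting all 18 libraries of a line gave 77 at the HT29 low dose. With 1 library left out the ranges were 6 to 13, 469 to 511, 3188 to 3367 and 301 to 382 in SW1783, and 25 to 48, 88 to 124, 358 to 576 and 275 to 385 in HT29. Except for the construction of a looser or smaller fit, the cause was not tested.

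The replicate numbers did not pair treated and vehicle libraries: same-numbered libraries had deviations correlated at -0.113 to 0.03 (SW1783) and -0.478 to 0.367 (HT29). Same-numbered vehicles of the 2 batches were more alike, from 0.22 to 0.301 and from 0.473 to 0.773. The labels do not say why, and the vehicle sets may not be independent of each other. Between the ACD doses of SW1783, same-numbered libraries were correlated at 0.057 to 0.229 and others at -0.194 to 0.093. Those dose groups may thus not be independent of one another. In HT29 the same-numbered dose pairs ran from -0.489 to 0.326. With the replicate block the HT29 wortmannin calls were 201 and the ATF4 and CHOP genes called up there 0.

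Chosen after seeing the data, edgeR called 2 TGF-beta ligands up in SW1783 with 100 µg/mL and 4 with 500 µg/mL, and 1 cytokine at the low dose in HT29. Without replicate 2 of the HT29 high dose, all calls there were 261 up and 315 down (212 and 268 with it), the ATF4 and CHOP list had 25 up and 1 down, and the interaction called 22 and 2 of it and 2 of the kinase list. Ranking by Spearman correlation shared 0 of the 10 most correlated genes, and a pseudocount of 0.1 shared 8. At 62 to 96 counts, the SW1783 vehicle level of GDF15 limits the precision of its fold changes there.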
